A study of Mus musculus with 2 samples.

Results

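The steroid-metabolising hydroxysteroid dehydrogenases and reductases of mouse liver were examined as a set of 10 genes, namely Hsd3b5, Hsd3b7, Hsd17b2, Hsd17b4, Hsd17b6, Hsd17b11, Hsd17b13, Hsd11b1, Srd5a1 and Akr1c6. They were chosen by gene symbol, as the probe sets that the platform annotation assigns to one of these genes alone. This gave 14 probe sets for 9 genes, out of 45101 probe sets and 18193 named genes on the array. Srd5a1, the steroid 5-alpha-reductase that turns testosterone into dihydrotestosterone, had no probe set assigned to it alone in the annotation used and has no value here. The RNA came from livers of 2 male mice, 3 months old and of mixed 129Sv/C57BL6 background, that had fasted overnight, and was hybridised to Affymetrix GeneChip mouse expression arrays. The first group was a control, with no genotype given in its label, and the other was Tmprss6-deficient (Tmprss6-/-, made by gene targeting), with 1 mouse and 1 array in each. Tmprss6 encodes matriptase-2, a hepatocyte protease that holds down the iron hormone hepcidin.

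Hydroxysteroid dehydrogenases interconvert hydroxyl and keto groups on the steroid ring, which switches androgens, oestrogens and glucocorticoids between active and less active forms, while reductases saturate double bonds of the ring. The liver uses them to clear circulating hormones, to regenerate active glucocorticoid and to build bile acids from cholesterol. Several proteins that carry the family name work mainly on other substrates, such as fatty acids in peroxisomes or lipids at the surface of lipid droplets. In mice, some of the liver enzymes differ in level between the sexes, a pattern that follows the pulses of growth hormone.

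Values are MAS5 signals, in arbitrary units, scaled to the same trimmed mean on both arrays. Ratios are Tmprss6-deficient over control on the log2 scale, and a floor of 17.8, the median of all probe sets, stands for the limit of reliable signal. With 1 array per group no replicate error or test can be given, the number of arrays limits the precision, and each difference is one between 2 animals. As a gauge of technical error, probe sets of one gene were compared with each other (variation between animals is not in it). The SD of their log2 ratios was 0.46 at signals under 64, 0.37 at 64 to 256, 0.32 at 256 to 1024 and 0.18 at higher signals. The signal of one probe set says nothing about its level against another, so genes are compared by ratio only.

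Tmprss6 itself read 1866 in the control and 88.2 in the mutant, in the direction of the labels (where its probes lie relative to the deletion is not stated). All 10 hepatocyte markers on the array were bright in both livers, from 3144 to 35925 in the control and from 4856 to 32945 in the other, and their summed signal in the Tmprss6-deficient liver was 0.963 times that of the control. Of these markers, 1 (Hnf4a, 1.54-fold, with log2 ratios of 0.95 to 1.40 on its other sets) was at least 1.5-fold higher and 0 were lower. With the arrays scaled to the same median, 0 were higher and 1 was lower. Kupffer cell and macrophage markers numbered 11, of which 4 were at least 1.5-fold lower and 1 that much higher, with a summed signal of 4179 and 3030. Endothelial markers summed to 1504 and 1522 over 10 genes, of which 3 were at least 1.5-fold higher (Lyve1 by 4.72-fold) and 2 lower (Clec4g by 1.98-fold). Stellate cell and fibroblast markers summed to 3565 and 3748 over 10 genes, of which 1 (Acta2, 5.75-fold) was lower and 0 were higher. Erythroid markers summed to 852 and 499 over 8 genes, and to 260 and 266 without Alas2, which read 592 and 232. Of the 6 erythroid markers above the floor in one liver or both, 2 were at least 1.5-fold lower and 0 were higher. These were Alas2 and Klf1, the latter at 57.4 in the control and 11.5, below the floor, in the other. Of 6 markers of skeletal muscle, fat and pancreas, 1 (Cela1, 228 and 146) exceeded the floor in both livers. Cholangiocyte markers lay near or below the floor, from 3.10 to 49.1 in the control and from 1.10 to 20.0 in the other, with 1 of 7 (Pkhd1) above it in both. In whole liver, fewer cells of a type and less RNA per cell cannot be told apart, and the part of these cell types in the results was not tested. Markers of steroid-producing glands were dim, with all 8 on the array between 0.699 and 14.3 in the control and between 0.901 and 22.2 in the Tmprss6-deficient liver.

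Hsd17b6, Hsd3b5 and Akr1c6 were lower in the Tmprss6-deficient liver by at least 2-fold, and the other members lay within 1.5-fold. Lower by at least 1.5-fold were 3 of the 9 measured members, and 0 were higher. For comparison, 12243 genes exceeded the floor on one array or both; 9.09% of them were lower and 8.90% higher by that fold, and 2.78% lower by at least 2-fold. The median log2 ratio of the members was -0.40, against -0.0012 for all measured genes, and 7 members had a ratio below 0. Among the 1029 genes with a mean signal of 1024 or more, which include 7 of the 9 members, 5.44% were at least 1.5-fold lower, and the median was -0.047. Of those 7 bright members, 1 (Akr1c6) was lower by this much.

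Hsd17b6 had the lowest ratio of the members. Its product is a microsomal enzyme that oxidises androstanediol back towards active androgen and also acts on retinoids. Probe set 1449385_at gave a signal of 708 in control and 104 in mutant liver. This is 6.81-fold lower, a log2 ratio of -2.77, where the spread for such signals was 0.32. Of 2408 genes with a mean signal from 256 to 1024, 4 had a lower ratio. The other Hsd17b6 probe set, 1449386_at, read 0.699 and 13.3, below the floor on both arrays, and gives no ratio, so that the difference rests on 1 probe set.

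Hsd3b5 was next. It encodes a male-predominant liver enzyme that, unlike the hormone-making members of its family, works as a 3-ketosteroid reductase and inactivates dihydrotestosterone. Its probe set 1420531_at read 163 in the control and 28.0 in the Tmprss6-deficient liver. The ratio was -2.54 on the log2 scale, or 5.80-fold lower, against a spread of 0.37. Of 3900 genes with a mean signal from 64 to 256, 9 had a lower ratio. The lower signal lies close to the floor: with a floor at the 70th percentile (52.9) only a bound remained, a log2 ratio of -1.62 or lower. Among genes of mean signal 77.7 or more, those nearest to Hsd3b5 in ratio over the 2 arrays were Acta2 (-2.52), Defb1 (-2.57), Cxcl14 (-2.64), Lipg (-2.36) and Hsd17b6. With 2 arrays this likeness is that of 1 ratio.

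Akr1c6, an aldo-keto reductase that interconverts testosterone and androstenedione and is also known as the type 5 17-beta-hydroxysteroid dehydrogenase of mouse, had the next lowest ratio. Probe set 1417085_at had signals of 5310 (control) and 2308 (Tmprss6-deficient). This was 2.30-fold lower, with a log2 ratio of -1.20 against a spread of 0.18. Of the 1029 genes in the brightest range, 9 had a lower ratio. All 3 genes are each carried by 1 probe set above the floor. Their log2 ratios were 6.85 to 8.57 times the spread at their mean signal, and variation between animals is not in that spread. For Hsd3b5, the signal of 28.0 in the Tmprss6-deficient liver lies in the range under 64, where the spread was 0.46.

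**Figure D1:**
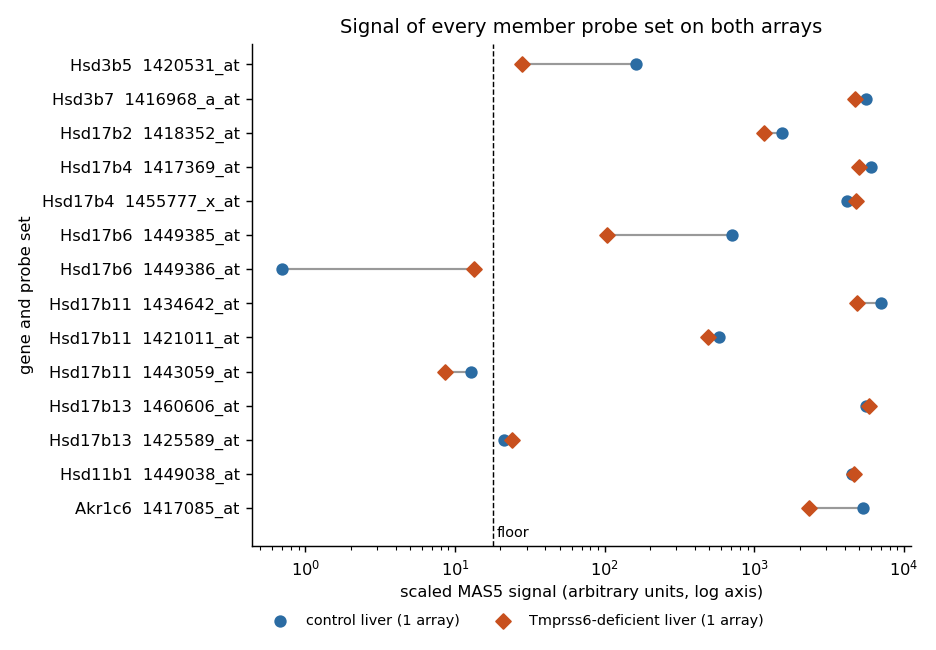
Scaled MAS5 signal (arbitrary units, log axis) of the 14 member probe sets in the control liver (circles) and the Tmprss6-deficient liver (diamonds), 1 array each, with the floor of 17.8 as a dashed line. Hsd3b5, Hsd17b6 (1449385_at) and Akr1c6 show the wide gaps, and 2 probe sets lie below the floor on both arrays.

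**Figure D2:**
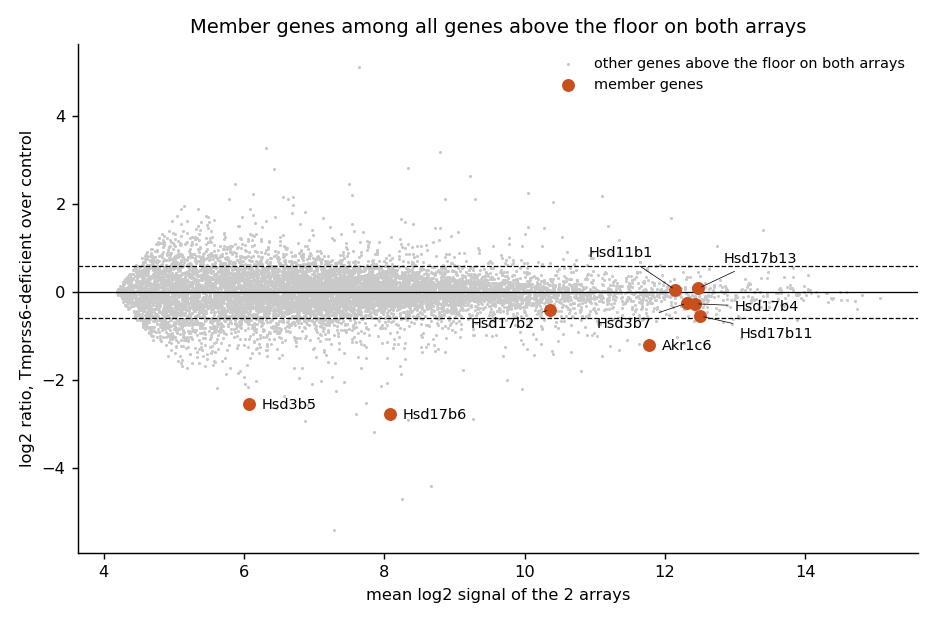
Log2 ratio (Tmprss6-deficient over control) against the mean log2 signal of the 2 arrays for the 10243 genes above the floor on both, each point a gene, with the 9 measured members in orange and 1.5-fold as dashed lines. Hsd17b6, Hsd3b5 and Akr1c6 lie below the cloud at their signal, and the other 6 members lie between the dashed lines.

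The sequences before the start of the 3 lower genes are shown together with those of Hsd3b7 and Hsd17b13, the members whose windows held one of the motifs searched. RefSeq windows of 300 bases, from 250 before to 50 after the start, were listed for 8 of the 10 members (not Hsd17b2 and Hsd17b4), and the 250 bases before the start are printed, 5′ to 3′ on the gene's strand, with motif matches in capitals. For Hsd17b6, which has 2 overlapping windows, the first is printed.
Hsd17b6 promoter, GRCm38.p6 chr10:128007612-128007861, minus strand: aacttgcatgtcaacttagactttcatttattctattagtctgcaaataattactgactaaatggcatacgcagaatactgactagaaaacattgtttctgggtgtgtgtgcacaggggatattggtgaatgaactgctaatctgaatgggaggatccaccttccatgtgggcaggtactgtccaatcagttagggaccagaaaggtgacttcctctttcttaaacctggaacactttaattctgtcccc
Hsd3b5 promoter, GRCm38.p6 chr3:98645535-98645784, minus strand: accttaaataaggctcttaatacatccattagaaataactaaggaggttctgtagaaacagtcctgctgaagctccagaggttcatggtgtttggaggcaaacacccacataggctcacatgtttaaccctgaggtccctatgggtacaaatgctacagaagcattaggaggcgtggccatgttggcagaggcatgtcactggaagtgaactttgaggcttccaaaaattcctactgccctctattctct
Akr1c6 promoter, GRCm38.p6 chr13:4434093-4434342, plus strand: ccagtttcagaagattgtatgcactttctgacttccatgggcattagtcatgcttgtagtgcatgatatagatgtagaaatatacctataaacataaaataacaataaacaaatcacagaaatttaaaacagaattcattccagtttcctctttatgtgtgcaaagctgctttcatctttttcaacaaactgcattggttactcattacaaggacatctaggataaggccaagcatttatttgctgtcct
Hsd3b7 promoter, GRCm38.p6 chr7:127800359-127800608, plus strand: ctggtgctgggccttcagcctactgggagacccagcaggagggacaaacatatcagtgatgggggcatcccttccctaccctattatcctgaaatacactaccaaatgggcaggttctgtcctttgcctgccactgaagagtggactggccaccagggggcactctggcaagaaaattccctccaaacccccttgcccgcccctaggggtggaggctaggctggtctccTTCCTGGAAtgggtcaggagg
Hsd17b13 promoter, GRCm38.p6 chr5:103977389-103977638, minus strand: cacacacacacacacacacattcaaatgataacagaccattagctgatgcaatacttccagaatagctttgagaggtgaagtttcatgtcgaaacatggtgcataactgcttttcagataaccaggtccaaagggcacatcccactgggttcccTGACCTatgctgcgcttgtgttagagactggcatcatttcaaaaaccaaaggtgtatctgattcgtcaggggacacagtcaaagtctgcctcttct

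These windows were searched on both strands for 5 motifs, none of which contains another. Matches to TTCNNNGAA, the letters bound by STAT5, stood in 8.30% of all 32851 promoter windows of the same length. Matches stood in 19.0% for AGAACA, a half-site of steroid hormone receptors, in 16.3% for AGGTCA, a half-site of other nuclear receptors, in 7.15% for the E-box CACGTG and in 2.32% for the D-box TTANGTAA. Among the 8 members whose windows were searched, Hsd3b7 held a match to TTCNNNGAA that begins 21 bases before the start (TTCCTGGAA). Hsd17b13 held an AGGTCA match on the opposite strand that begins 96 bases before the start, read as TGACCT. The windows of Hsd17b6, Hsd3b5 and Akr1c6 held none of these letters, nor did those of Hsd11b1, Hsd17b11 and Srd5a1. A match is a description of letters in this window, and none says only that the letters are not in it.

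Other members also act on sex steroids and differed less. Hsd17b2 oxidises oestradiol and testosterone to less active 17-keto steroids. Its probe set 1418352_at read 1516 and 1150, a log2 ratio of -0.40 against a spread of 0.18. Of the 1029 genes in the brightest range, 11.1% had a lower ratio. Hsd17b11, which oxidises androstanediol and sits on lipid droplets, read 6997 and 4807 on 1434642_at and 576 and 488 on 1421011_at. Both sets were lower in the Tmprss6-deficient liver, by 1.46-fold and 1.18-fold, and the remaining set, 1443059_at, was below the floor on both arrays (12.7 and 8.51). Hsd17b11 lay just inside the 1.5-fold limit and passed it with the arrays scaled to the same median, where its log2 ratio was -0.61.

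Hsd17b13 lies directly beside Hsd17b11 in gene order on chromosome 5 and encodes another lipid droplet protein of hepatocytes. The neighbours differed from each other: Hsd17b13 read 5531 and 5862 on 1460606_at, a log2 ratio of 0.084, and 21.4 and 24.1 on the dim set 1425589_at, a ratio of 0.18. Both Hsd17b13 sets were slightly higher in the Tmprss6-deficient liver, by less than the probe set spread, while both measured Hsd17b11 sets were lower. Without these members, the 17 measured lipid droplet genes had a median log2 ratio of 0.14, and 2 were at least 1.5-fold higher and 2 that much lower. Plin2, the major lipid droplet coat gene of liver, read 9996 and 9990. Plin4 and Cidec were 2.23-fold and 1.87-fold higher, and G0s2, an inhibitor of triglyceride lipase, and Fitm1 were 1.93-fold and 1.77-fold lower.

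Hsd11b1, which regenerates active corticosterone from its inert keto form in the liver, read 4468 in the control and 4625 in the Tmprss6-deficient liver on 1449038_at. Its log2 ratio of 0.050 was smaller than the spread of 0.18, and it was -0.019 with the arrays scaled to the same median. H6pd, which supplies the NADPH that this enzyme needs inside the endoplasmic reticulum, read 2271 and 2729, a ratio of 0.27. For 6 measured enzymes that supply NADPH the median was 0.017; Me1, malic enzyme, was 2.40-fold higher, and 0 were lower by 1.5-fold. Idh1 and Pgd had ratios of -0.33 and -0.13, and other Pgd sets ranged from -0.15 to 0.24. The glucocorticoid receptor gene Nr3c1 read 338 and 342, with its other measured probe sets between -0.14 and 0.092.

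Genes that respond to glucocorticoid in liver lay on both sides of 0, with 5 of 19 at least 1.5-fold higher, 1 that much lower and a median of 0.17. With the arrays scaled to the same median, 4 were higher and 2 lower. Mt2, Cdkn1a and Lcn2 were 4.59-fold, 4.36-fold and 3.14-fold higher, and these genes also respond to metals, damage or inflammation. Fkbp5, a co-chaperone of the receptor and likewise a classical target of the hormone, was 1.59-fold higher, with a log2 ratio of 0.98 on its other measured set, and the aminotransferase gene Got1 was 1.51-fold higher. Dusp1, a phosphatase of MAP kinases, was 1.95-fold lower. Tat, tyrosine aminotransferase and another classical target, read 10177 and 6942, a ratio of -0.55.

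Of the 3 members on the bile acid synthesis list, Akr1c6 is described above, and Hsd3b7 and Hsd17b4, the latter also of peroxisomal oxidation, lay within 1.5-fold. Hsd3b7, the enzyme that acts on 7-alpha-hydroxylated sterols directly after Cyp7a1, read 5561 and 4686 on 1416968_a_at, a log2 ratio of -0.25 against a spread of 0.18. Hsd17b4 encodes the D-bifunctional protein, which carries out the middle steps of peroxisomal beta-oxidation of bile acid side chains and very long fatty acids. Its 2 probe sets pointed in opposite directions: 1417369_at read 6035 and 5025, a ratio of -0.26, and 1455777_x_at read 4163 and 4736, a ratio of 0.19. Probe sets with _x in their name may bind related transcripts, and the mean of both ratios was -0.039.

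Around these members, bile acid synthesis enzymes other than the listed genes numbered 16, with a median of -0.0014, and 1 was at least 1.5-fold higher and 3 lower. Of these, the gene of the rate-limiting enzyme, Cyp7a1, was 7.43-fold lower on its brighter probe set, with a log2 ratio of -1.63 on the other. Cyp7b1, the oxysterol 7-alpha-hydroxylase, was 2.25-fold lower on its brighter set, with a ratio of -1.46 on the other measured one. Cyp39a1, another oxysterol hydroxylase, was 2.75-fold higher. Peroxisomal beta-oxidation genes other than Hsd17b4 numbered 19, with a median of -0.12, and again 1 was higher and 3 were lower. The 1 higher was a bound near the floor. The count higher was 0 with the arrays scaled to the same median or quantile-normalised. It was also 0 with the floor at the 70th percentile or as a pseudocount. Among the 19 genes, the transporter gene Abcd2 was 2.65-fold, the thioesterase gene Acot4 2.08-fold and the isomerase gene Eci2 1.64-fold lower. Amacr, which prepares bile acid precursors for this pathway, had a ratio of -0.33.

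Relatives of the members were read in the same way. Of 35 other hydroxysteroid dehydrogenases and steroid reductases, 28 had a probe set of their own, 22 exceeded the floor in one liver or both, and 5 of these were at least 1.5-fold lower and 2 that much higher. Their median log2 ratio was -0.13, and with the floor at the 30th percentile it was 0.036 and 6 were higher, against 1 higher with the 70th. The lower genes were Hsd3b2, Akr1c20, Nsdhl, Akr1c14 and Hsd17b7. Nsdhl, which removes a methyl group in cholesterol synthesis, was 1.91-fold lower, and Hsd17b7, of the same pathway, 1.69-fold lower on its brightest set and 1.29-fold on another, with the third measured set 1.52-fold higher. Tecr, a reductase of very long chain fatty acid synthesis, was 1.72-fold and 1.65-fold higher on its 2 sets, and Akr1c21 at least 1.58-fold higher (17.0 and 28.2). Akr1d1, the 5-beta-reductase of bile acid synthesis, had ratios of 0.30 and 0.56, and the steroid reductase relative Srd5a3, which works on polyprenol, had 4 measured sets between 0.081 and 0.62. Hsd11b2, the enzyme that inactivates corticosterone in kidney, read 2.60 and 21.0, near the floor.

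The 3 lower members were next set beside their chromosomal neighbours, as the 6 protein-coding genes on either side in the RefSeq table of GRCm38.p6, a window chosen after the ratios were seen. Hsd3b5 lies in a cluster of Hsd3b genes on chromosome 3, where 4 neighbours were measured, 2 of them at least 1.5-fold lower and 1 that much higher. Beyond the Hsd3b genes these were Phgdh, 1.84-fold lower, and Wars2, 1.78-fold higher. In the cluster, Hsd3b2 read 114 in the control and 17.5, below the floor, in the Tmprss6-deficient liver, at least 6.38-fold lower. The next gene, Hsd3b3, read 150 and 142 on its brighter set and 90.5 and 51.8 on the other, ratios of -0.077 and -0.81. Hsd3b1, the form of adrenal and gonads, was below the floor on both arrays (0.699 and 2.50). Genes of this cluster are closely similar in sequence and can share hybridisation, so the values of Hsd3b5, Hsd3b2 and Hsd3b3 may not be independent.

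Hsd17b6 lies among retinol dehydrogenase genes on chromosome 10, and its closest relatives there did not share its ratio. Sdr9c7, Rdh7 and Rdh16 had log2 ratios of -0.18, -0.17 and -0.23, Rdh9 had 0.38, and Rdh16f2 read 266 and 563, a ratio of 1.08. On the other side, Prim1 had a ratio of -0.33 and Naca one of -0.0020. Of 10 measured neighbours, Rbms2 (-1.20) was lower and Rdh16f2 higher by at least 1.5-fold, and the others lay within it.

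Akr1c6 lies in the Akr1c cluster on chromosome 13, where 2 of 10 measured neighbours were at least 1.5-fold lower and 1, Akr1c21, named above, at least that much higher. Its direct neighbour Akr1c20 read 683 and 277, 2.47-fold lower, and a dim other set of that gene exceeded the floor in the control alone (26.8 and 11.3). Akr1c14, a 3-alpha-hydroxysteroid dehydrogenase, read 1804 and 1053, 1.71-fold lower. Akr1c12 and Akr1c13, on the side of Akr1c14, had ratios of -0.35 and -0.26, and Akr1c19, between them, one of 0.078. Within this cluster the ratios thus differed from gene to gene, and related Akr1c genes may also share probes.

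**Figure D3:**
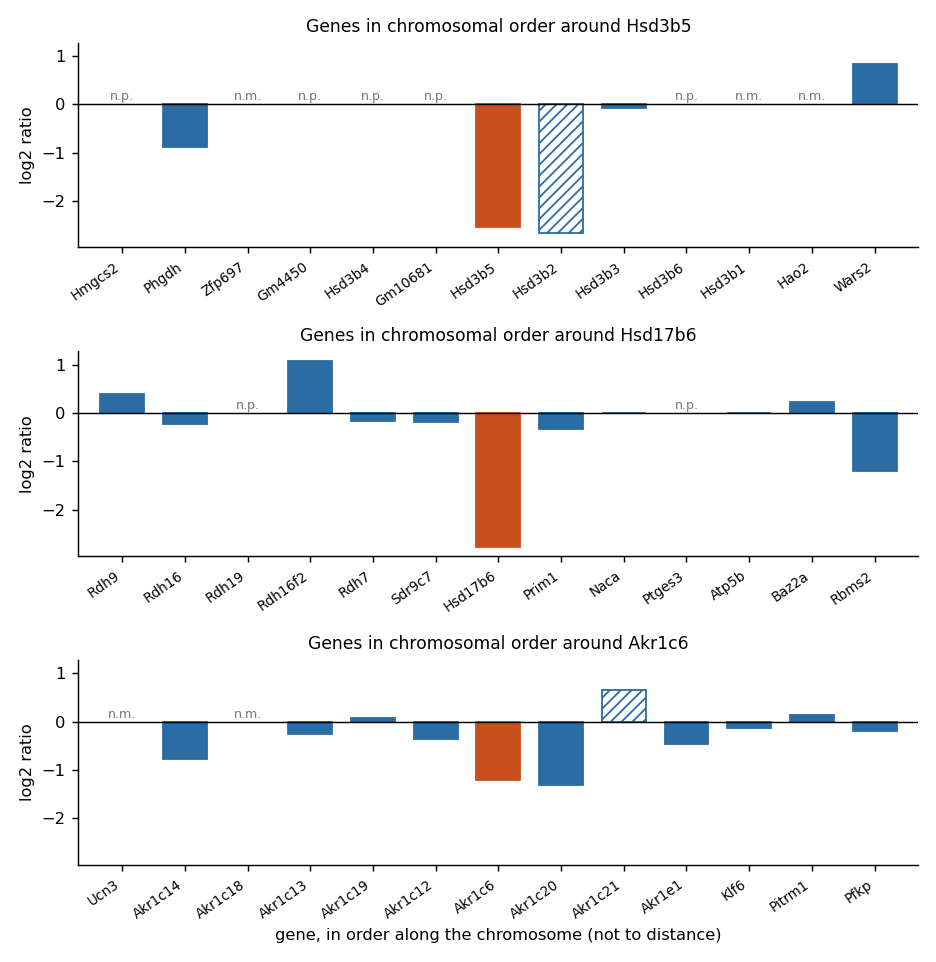
Log2 ratio (Tmprss6-deficient over control, 1 array each) of the 6 protein-coding genes on either side of Hsd3b5, Hsd17b6 and Akr1c6, in chromosomal order and not to distance, with the member in orange. Hatched bars are bounds for genes above the floor on 1 array, n.m. marks genes below it on both and n.p. genes with no probe set of their own, and low bars stand beside Hsd3b5 (Hsd3b2) and Akr1c6 (Akr1c20) but not directly beside Hsd17b6.

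Other steroid-handling genes of the liver were lower more often than higher. Of 26 measured genes for steroid hydroxylation, conjugation, transport and reception, 12 were at least 1.5-fold lower and 5 that much higher, with a median of -0.51. With loess or another scaling 9 to 13 of them were lower, and 5 were higher each time. Ugt2b38, a glucuronosyltransferase, was 7.68-fold lower, and Slco1a1, an uptake transporter of steroid conjugates, 2.52-fold lower on the brighter of 2 sets, both lower. Cyp7b1 and Cyp39a1, named above, are also on this list, the first lower and the second 2.75-fold higher. Cyp17a1, the 17-alpha-hydroxylase of androgen synthesis, read 599 and 1280, and the oestrogen receptor gene Esr1 read 269 and 427.

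Hsd3b5 is among the genes known to be higher in male than in female mouse liver. Without it, 12 of the 17 measured genes on the male-biased list were at least 1.5-fold lower and 0 were higher, and their median was -0.81. Some of these genes had measured probe sets in opposite directions. With Hsd3b5 included, 13 genes were lower and the median was -0.91, against 12 and -0.74 with the mean of all probe sets. This list and that of the steroid-handling genes above share genes, Ugt2b38 and Slco1a1 among them, so their counts are not separate results. Bcl6, a repressor of female-biased genes, was 3.18-fold lower on its brighter set and had a ratio of -0.85 on the other. For 8 measured genes known to be higher in females the median was 0.30, with 3 at least 1.5-fold higher and 3 that much lower, and these counts moved with the floor, to 6 higher and 3 lower at the 30th percentile and 2 higher and 1 lower at the 70th. Cyp17a1 and Fmo2 were 2.14-fold and 1.63-fold higher, the latter with 1 of 4 measured sets in the opposite direction, and Abcd2 and Acot3 were 2.65-fold and 2.02-fold lower. Both animals were labelled male, and these counts describe 2 livers.

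**Figure D4:**
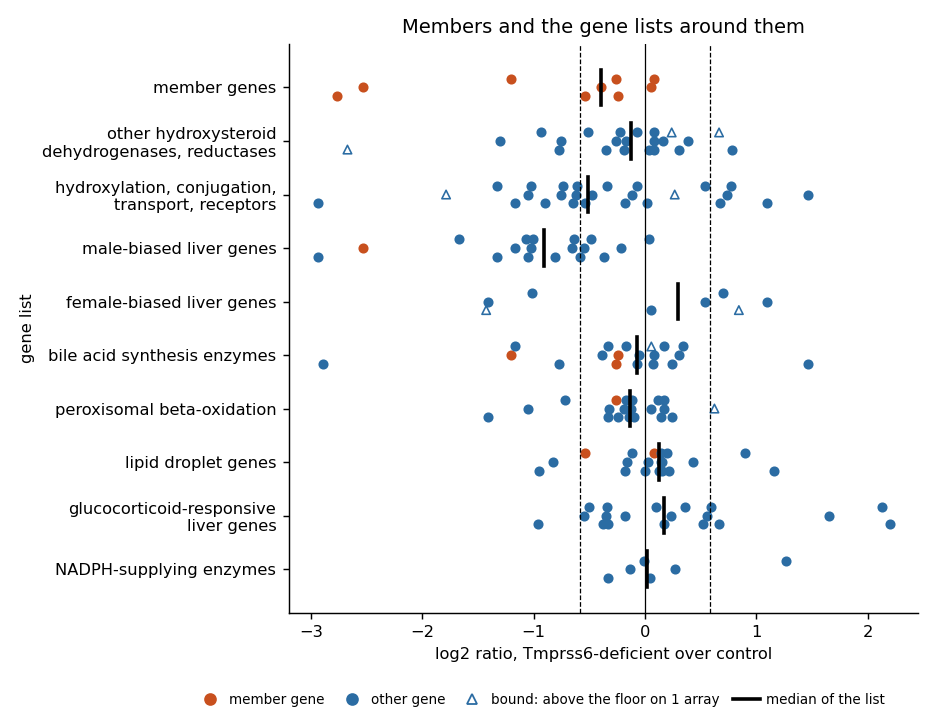
Log2 ratio (Tmprss6-deficient over control, 1 array each) of the measured genes of the member set and of 9 gene lists around it, each point a gene, triangles bounds, thick bars medians and dashed lines 1.5-fold. Members appear in orange in every list that holds them; the male-biased list has its median at -0.91 and the members theirs at -0.40.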

How the data were processed

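Liver RNA was column-purified and converted to cDNA, from which biotin-labelled RNA was made (per the labels' protocols). The authors deposited an intensity signal for each probe set, calculated with MAS5 per the submitters' processing notes (no version or settings stated). The signals run from 0 to 42541 on a linear scale, and the trimmed means, without the lowest and highest 2% of probe sets, were 99.6 and 99.4, so the authors' files appear already scaled.

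In numpy 2.4.6 and pandas 2.3.3, both arrays were brought to one trimmed mean, values under the floor (the median of all but the 64 control probe sets) were raised to it, and log2 was taken. A single gene symbol was listed for 34945 probe sets, several for 932, which stayed unnamed, and none for 9160. The brightest probe set by mean log2 signal stands for a gene. A gene counts as measured when it exceeds the floor on either array, with a bound where it does so on 1, and a probe set when it does so on both. For the probe set spread, each of 4367 genes gave the gap between the log2 ratios of its pair of brightest measured sets, and the SD of these gaps was divided by the square root of 2. Detection calls and saturation were not used here. No test was made, and replicates could not be compared, with 1 array per group.

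Members, gene lists, thresholds and alternatives were chosen with earlier results of these data known. Named genes are all members, Tmprss6, up to 4 genes with the largest ratios of each list (for the cell type markers, given here mostly as sums and counts), the 5 genes nearest to Hsd3b5 in ratio, and Cyp7a1, Plin2, H6pd, Nr3c1 and Tat; a further gene of the rule is not reported here. Esr1, Fkbp5, Got1, Hsd17b7, Hsd3b2, Akr1c21, Akr1d1, Srd5a3, Hsd11b2, Klf1 and the chromosomal neighbours are not covered by this rule. They were picked with their values in view. Proteins were not compared here. The ratio procedure was tested on simulated arrays with known changes. These arrays were built from the control array with changes in bright genes only. The simulation thus says nothing on variation between animals or on signals near the floor. Alternatives were other scalings (median, none, quantile, loess with statsmodels 0.14.6), a lower and a higher floor (30th and 70th percentile) or the floor as pseudocount, other choices of probe set, and 2-fold in place of 1.5-fold.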

Additional observations from a re-analysis of the deposited data

How the results depend on the processing

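Of 81 combinations of a member's ratio with an alternative, 78 moved by less than the probe set spread and 1 turned sign (Hsd11b1, -0.019 with scaling to the median). The 3 that moved were Hsd3b5 with the floor at the 70th percentile (-1.62, as a bound) or as a pseudocount (-1.98), and Hsd17b4 with the mean of its probe sets (-0.039). Part of the 78 had no room to move, so this count overstates how far the ratios were tested. All measured members exceeded the floor on both arrays, so lowering it could change none of their ratios. Raising it changed Hsd3b5 alone. Averaging could change only the 3 members with several measured probe sets. The remaining choice of probe set changed no member. The count of members lower was 3 under each alternative, 2-fold included, except scaling to the median (4, with Hsd17b11), and the count higher was 0 throughout. The members' median ranged from -0.47 to -0.36. Counts over all genes of those at least 1.5-fold higher and lower were 1090 and 1113 as reported, 2522 and 2464 using the 30th percentile as floor, 450 and 508 using the 70th, and 293 and 340 for 2-fold. Scaling to the median gave 895 higher and 1356 lower. The bile acid list, members included, had a median of -0.074, and of 0.023 with loess, and the peroxisomal list one of -0.13, and of 0.048 with the mean of all probe sets. The cause of these differences between settings was not tested. No paired analysis was possible because each group holds 1 array, and no replicate could be left out. Signals near the floor limit Hsd3b5, Hsd3b2 and Akr1c21.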
